A study of Mus musculus with 2 samples.

Results

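The genes that write and erase DNA methylation were examined in mouse embryonic stem (ES) cells whose parental chromosomes can be told apart. The set held Dnmt1, Dnmt3a, Dnmt3b, Dnmt3l, Tet1, Tet2, Tet3 and Uhrf1. Its members were the windows of 50 kb that overlap the annotated RefSeq span of each gene, 17 of the 43941 windows in the table, and the 80 windows within 250 kb either side served as context. In all 17 windows each allele reached the minimum of 10 interactions, so none was lost to the count minimum. The 8 genes lie on 7 chromosomes, with Dnmt3l and Tet1 both on chromosome 10, and no window was shared between members.

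The cells were F121-6, a single female line from a cross of the 129 strain with castaneus (Cas), so each cell carries a 129 and a Cas copy of every autosome. They were grown with LIF on mouse embryonic fibroblasts inactivated with mitomycin C, and mixed-in feeder chromatin was not examined. Both samples, replicates 1 and 2, are of this group, with no treatment and no second cell type, and as the table has 1 column per allele and quantity for both, each value was taken as pooled and has no spread between replicates. In Promoter Capture Hi-C, nuclear DNA that was close in space is joined by ligation, and junctions with a promoter fragment are pulled out by RNA baits. What was read out is how many promoter contacts fell in a window on each allele and how far they reached. RNA was not measured, so the ES cell label could not be set against marker expression.

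Methylation of cytosine at CpG sites is copied to the new strand after replication by the maintenance enzyme encoded by Dnmt1, which the Uhrf1 protein brings to half-methylated DNA. Dnmt3a and Dnmt3b encode the enzymes that methylate unmarked CpGs, and Dnmt3l encodes a relative without catalytic activity that stimulates both. The Tet genes encode dioxygenases that oxidise methylcytosine, the first step of active removal. Tet1, Tet2, Dnmt3b and Dnmt3l are known for high expression in ES cells, and Tet3 for its role in the oocyte and zygote.

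The baits were aimed at promoters, though whether each start of these genes was baited is not known here. CpG content varies widely between the starts, so 5 stretches of differing CpG content are shown, none of them from the richest starts. They were taken from RefSeq on GRCm38.p6 and end just before the annotated gene span or, for Dnmt3a, before its inner start, with every CpG in capitals.
Dnmt1, before its outermost start, chr9:20959889-20960138, minus strand: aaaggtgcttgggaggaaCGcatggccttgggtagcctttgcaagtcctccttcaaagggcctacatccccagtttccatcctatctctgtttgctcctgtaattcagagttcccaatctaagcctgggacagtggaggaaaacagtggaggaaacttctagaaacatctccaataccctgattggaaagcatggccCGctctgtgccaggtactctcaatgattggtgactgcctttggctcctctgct
Uhrf1, before its outer start, chr17:56303087-56303336, plus strand: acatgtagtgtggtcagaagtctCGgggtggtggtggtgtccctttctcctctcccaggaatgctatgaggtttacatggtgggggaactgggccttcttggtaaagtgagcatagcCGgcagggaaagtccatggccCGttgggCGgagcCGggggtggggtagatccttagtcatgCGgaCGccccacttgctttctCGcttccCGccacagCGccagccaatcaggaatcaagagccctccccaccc
Dnmt3a, before the inner start, chr12:3891494-3891743, plus strand: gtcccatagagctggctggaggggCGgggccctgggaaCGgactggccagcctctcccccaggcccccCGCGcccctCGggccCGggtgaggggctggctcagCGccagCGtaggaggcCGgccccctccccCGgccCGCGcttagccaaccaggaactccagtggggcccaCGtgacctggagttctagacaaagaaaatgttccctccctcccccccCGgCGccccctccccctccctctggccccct
Dnmt3b, before the gene span, chr2:153649199-153649410, plus strand: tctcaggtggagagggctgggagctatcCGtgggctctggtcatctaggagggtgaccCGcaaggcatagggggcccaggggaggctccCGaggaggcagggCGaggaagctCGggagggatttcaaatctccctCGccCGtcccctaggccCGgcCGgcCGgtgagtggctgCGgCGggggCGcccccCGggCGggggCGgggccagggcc
Tet1, before the gene span, chr10:62887470-62887574, minus strand: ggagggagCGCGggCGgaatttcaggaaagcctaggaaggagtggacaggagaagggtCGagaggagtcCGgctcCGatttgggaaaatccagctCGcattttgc
The Dnmt1 stretch holds 2 CpGs in 250 bases and the Uhrf1 stretch 10. The inner Dnmt3a stretch holds 15 in 250, that of Dnmt3b 16 in 212 and that of Tet1 7 in 105.

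RefSeq listed 15 starts for the 8 genes. In the 300 bases around each (250 before and 50 after), the CpG count ran from 2 at the outermost Dnmt1 start to 57 at Tet2, against a median of 7 (quartiles 3 and 20) over 32851 listed promoters. CG, which reads the same on both strands, occurred at least once in 94.6% of those. The Dnmt3l starts had 6, 4 and 3, below the median of all listed promoters but within the quartiles. The outer starts of Dnmt3a had 46 and 47 and its inner start 18. The innermost Dnmt1 start and the inner Uhrf1 start each had 33, Dnmt3b had 30, Tet3 22 and Tet1 17. The HindIII site AAGCTT, also the same on both strands, was in none of the 15 stretches and in 7.45% of all listed promoters, so no cut of the enzyme used falls within these bases of the reference sequence.

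Contacts of the 17 windows were split between the alleles as in the genome at large. Together they held 31138 contacts of the 129 allele and 22939 of Cas, so that 129 made up 57.58% (exact Clopper-Pearson 95% interval 57.16 to 58.00%), where the share over all autosomal windows was 57.57%. Shares in single windows ran from 51.4% at Dnmt1 to 62.7% at Tet2. Below, a centred log2 ratio is the log2 ratio of 129 to Cas interactions minus the median of all windows, so 0 marks the typical window. On this scale 8 member windows lay above 0 and 9 below, from -0.37 to 0.30, with a standard deviation of 0.18. The 17130 windows within the same range of summed counts had a standard deviation of 0.38, and 79.1% of them lay within the range spanned by the members. A difference of 2-fold or more was seen in 2.32% of those windows and in none of the 17.

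**Figure D1:**
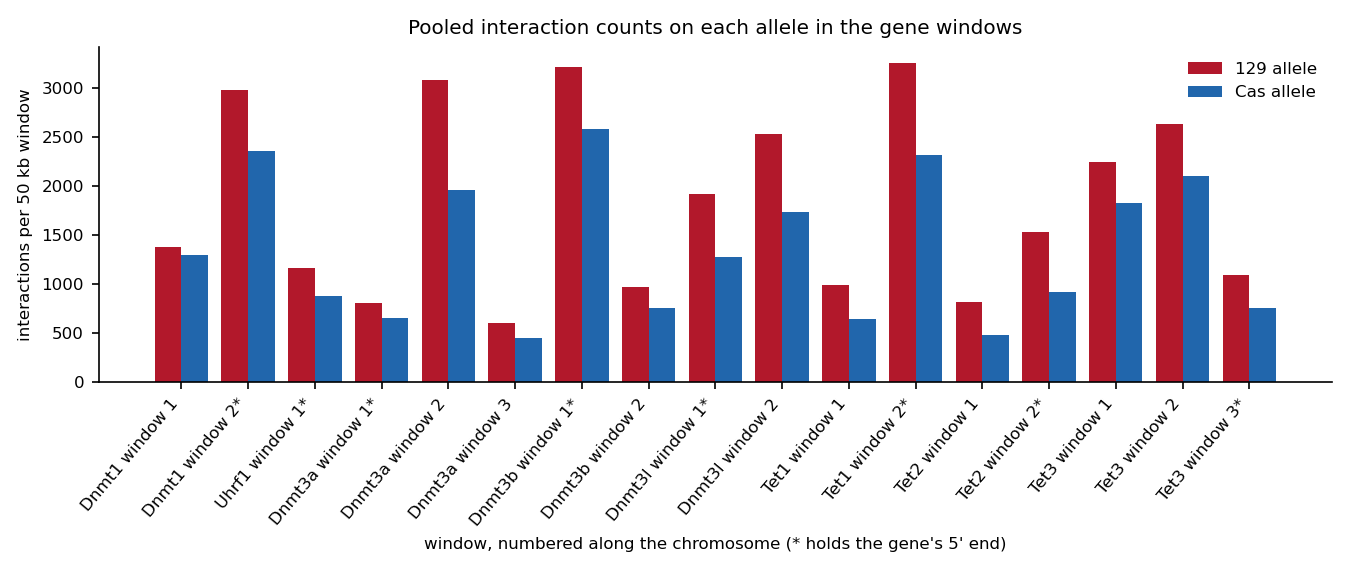
Interactions in each of the 17 gene windows of 50 kb (bars from 0, values taken as pooled over both samples) on the 129 allele (red) and the Cas allele (blue). The 129 bar is the taller in every window, as it is for the autosomes as a whole, and the tallest windows are those with the starts of Dnmt3b, Tet1 and Dnmt1 and the inner start of Dnmt3a.

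The beta-binomial test, which sets each window against the autosomal 129 share and allows for the spread between windows, called 0 of the 17 windows at a Benjamini-Hochberg adjusted p of 0.05, where 0.944% of all 43762 windows tested were called. Their unadjusted p ran from 0.342 to 0.998, so none was under 0.05 either. Summed over each gene, 0 of 8 loci were called, against 1.36% of 18479 protein-coding loci, with unadjusted p from 0.344 to 0.931. The exact binomial test, which knows only counting error, called 11 of the 17 windows, 6 higher and 5 lower on 129, and 7 of the 8 loci, all but Uhrf1. It also called 51.4% of all windows and 67.5% of all loci, so its calls do not set the members apart. The precision has to be read with the spread: windows of these counts needed a share under about 44.6 to 44.9% or above 69.8 to 70.1% for an unadjusted p under 0.05. Smaller allelic differences were not detectable with this test.

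The maintenance genes came first by role. The Dnmt1 locus on chromosome 9 (gene 20907206 to 20959888) held 4344 contacts of the 129 allele and 3644 of Cas, which gave the lowest 129 share of the set, 54.4% (95% interval 53.3 to 55.5%), at a ratio of -0.20. Its window with all 3 listed starts, shared with the sphingosine receptor gene S1pr2, had 2973 and 2348 interactions. The window with most of the gene body had 1371 and 1296, a share of 51.4% (49.5 to 53.3%), the most nearly equal split of the 17. The body window was 4.47 points (counting SE 1.18) below the start window, with an adjusted p of 0.000921 by Fisher's exact test over 11 pairs of windows within genes. That test allows for counting error only, and adjoining windows anywhere in the table differed by a median of 4.21 points (quartiles 1.92 and 7.90).

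Uhrf1 is short (chromosome 17, 56303337 to 56323486) and falls in 1 window, which it shares with Arrdc5 and the histone demethylase gene Kdm4b. There, 129 contributed 1160 contacts and Cas 870, giving 57.1% on 129 (55.0 to 59.3%) and a ratio of -0.038. It was the member locus closest to the typical window. The window just before it, whose edge lies 3.34 kb from the start of Uhrf1, had 2286 and 870 interactions. Its share was 72.4% (70.8 to 74.0%), 15.3 points above that of the Uhrf1 window, with a centred log2 ratio of 0.94 and a beta-binomial adjusted p of 0.534. It holds the starts of Fem1a, the Toll receptor adaptor gene Ticam1 and the lipid droplet gene Plin3. The Cas count was 870 in both windows and the 129 count differed. The windows hold different gene starts and their numbers of baited fragments are not known, so these counts do not tell which allele differs.

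Among the genes for new methylation, Dnmt3a showed the clearest differences between its own windows. Dnmt3a (chromosome 12, 3801559 to 3914443) has a short isoform from a promoter inside the gene, known as the main form in ES cells. The window with the inner start had 3072 interactions on 129 and 1958 on Cas, that with both outer starts 804 and 654, and the last window 603 and 444. The inner start window therefore held 3.45 times the interactions of the outer and 4.80 times those of the last window. The number of baited fragments per window is not known here, so its part in this difference was not tested. The 129 share was 61.1% (59.7 to 62.4%) at the inner start and 55.1% (52.6 to 57.7%) at the outer, 5.93 points apart (counting SE 1.47, Fisher's exact test adjusted p = 0.000600). That gap lies between the median and the upper quartile of adjoining windows given above. Over the locus the share was 59.4% (58.3 to 60.6%).

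Dnmt3b (chromosome 2, 153649411 to 153687730) starts 0.551 kb before a window boundary by its listed start, so 590 bases of the gene lie in the start window, which also holds Commd7. The start window had 3212 interactions on 129 and 2580 on Cas, the highest sum of the 17, and the body window had 964 and 756. Their 129 shares were 55.5% (54.2 to 56.7%) and 56.1% (53.7 to 58.4%), with overlapping intervals. A tandem copy known as Dnmt3c, which encodes a methyltransferase of the male germ line and is annotated here as a pseudogene, begins 18.8 kb after Dnmt3b. Its window had 1344 and 1028 interactions, a share of 56.7%, close to that of Dnmt3b. Reads from sequence that such copies share may be split or lost in mapping, and this was not tested. How alike the copies are was not examined. The pseudogene Dnmt3a-ps1 on chromosome 3 lay in a sparse window with 229 and 199 interactions.

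Dnmt3l (chromosome 10, 78042287 to 78063622) lies among Pfkl, the immune tolerance regulator gene Aire and Icosl. Its first window, with 2 of the 3 listed starts, had 1918 interactions on 129 and 1274 on Cas, and its second 2522 and 1729. Shares were 60.1% (58.4 to 61.8%) and 59.3% (57.8 to 60.8%), indistinguishable within counting error. Both lay below the share of chromosome 10 as a whole, 61.1%, which stands above all other autosomes. Against the centre of its own chromosome, the ratio of the Dnmt3l locus turned from 0.11 to -0.12.

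The erasers did not move as a group. In the start window of Tet1 (chromosome 10, 62804570 to 62887469), 129 had 3251 contacts and Cas 2316, and in the other window 985 and 642. Its locus share was 58.9% (57.7 to 60.0%), and its ratio of 0.066 became -0.17 against chromosome 10. Tet2 (chromosome 3, 133463677 to 133545136) had 1531 and 919 interactions in the start window and 808 and 480 in the other. Both windows had nearly the same share, 62.5% (60.5 to 64.4%) and 62.7% (60.0 to 65.4%), the highest of the 17. The Tet2 locus, at 62.6% (61.0 to 64.1%) and a ratio of 0.29, ranked at percentile 89.0 of protein-coding loci.

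Tet3 (chromosome 6, 83362373 to 83457208) had a higher 129 share at the 5' end of its span than along the rest. The window with the 5' end of its span, shared with Dguok, had 1090 contacts of 129 and 750 of Cas, or 59.2% on 129 (57.0 to 61.5%). The middle window, with the only start RefSeq lists, had 2631 and 2097 and a share of 55.6% (54.2 to 57.1%). The last, shared with Bola3, had 2243 and 1826 and a share of 55.1% (53.6 to 56.7%). The 5' window was 3.59 points (counting SE 1.35) above the middle window and 4.12 (SE 1.39) above the last, with adjusted p of 0.0232 and 0.0118 by Fisher's exact test on counting error. Both gaps were below the median of 4.21 points between adjoining windows given above, although the 5' and last windows do not adjoin.

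Ordered by locus share, the genes ran Dnmt1, Dnmt3b, Tet3, Uhrf1, Tet1, Dnmt3a, Dnmt3l and Tet2, over 8.19 points in all. Of the 7 neighbouring pairs, only Dnmt3l and Tet2 differed beyond counting error, by 2.92 points (Fisher's exact test adjusted p = 0.0205). The other 6 had adjusted p of 0.375 to 0.803. All of these gaps were smaller than the spread between protein-coding loci, whose estimated standard deviation was 5.17 points. The order does not follow role, since the genes of new methylation and those of removal each fell on both sides of 0. Both maintenance loci were below 0.

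Summed counts of the windows with a gene's 5' end spanned a wide range, from 1458 at Dnmt3a through 1840 at Tet3, 2030 at Uhrf1, 2450 at Tet2, 3192 at Dnmt3l and 5321 at Dnmt1 to 5567 at Tet1 and 5792 at Dnmt3b. Every neighbouring pair differed beyond counting error by an exact binomial test of equal sums, with adjusted p of at most 0.0356, although the 3 highest were only 1.04-fold and 1.05-fold apart. That test allows for counting error only. The windows also differ in the genes they hold, and their numbers of baited fragments are not known, so it does not compare the genes themselves. For Dnmt3a, Tet3 and Dnmt3l the 5' end of the span is not where most interactions were. Another listed start of Dnmt3a and of Dnmt3l lies in a busier window. The only listed start of Tet3 does too, and its 5' window holds none. Over all windows the 17 members ranked from percentile 52.6 to 91.6 by summed count. Per window of the locus, the members held 1869 (Tet2) to 3994 (Dnmt1) interactions, percentiles 19.4 to 52.3 of protein-coding loci.

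The flanks showed how local these values were. In 7 of the 8 genes the locus had a lower 129 to Cas ratio than its 10 flanking windows in sum, by -0.18 at Uhrf1 and -0.17 at Tet1 and by -0.060 or less in size at the other 5, while Tet2 lay 0.20 above. Over 18551 protein-coding loci the same difference had a median of -0.020 and quartiles of -0.15 and 0.12, so Uhrf1, Tet1 and Tet2 lay outside the quartiles and the rest within. With flanks of 500 kb, 5 of 8 loci were below. Of the 80 flank windows, 45 lay above 0 and 35 below. Their pooled share was 58.5% (58.4 to 58.7%).

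**Figure D2:**
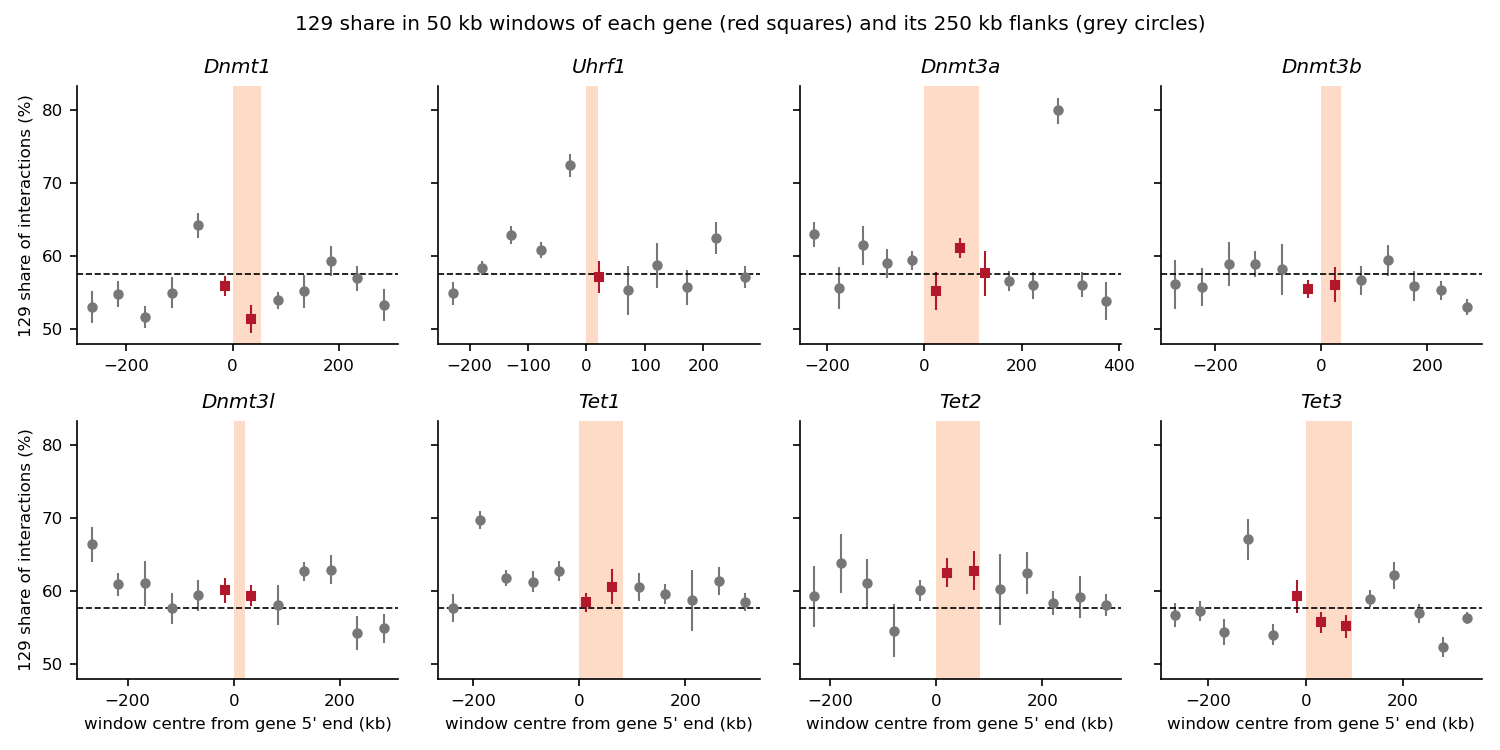
Share of interactions on the 129 allele (y axis, percent, bars are exact 95% counting intervals) against the distance of each window's centre from the gene's 5' end in kb, upstream to the left, for the gene windows (red squares) and flanks (grey circles). The shaded span is the gene and the dashed line the autosomal share of 57.6%. Gene windows stay between 51.4 and 62.7%, while single flank windows reach 79.9% near Dnmt3a and 72.4% beside Uhrf1.

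Of the 80 flank windows, 1 (1.25%) was called by the beta-binomial test, near the 0.944% of all windows. It was that with the start of Dnajc27 on chromosome 12 (4050001 to 4100000), 136 kb beyond the end of Dnmt3a. Contacts of 129 numbered 1585 and those of Cas 398, or 79.9% on 129 (78.1 to 81.7%), at a ratio of 1.54 with an adjusted p of 0.0194. The windows on either side, with Efr3b and with Adcy3, had 1600 and 1260, and 1785 and 1399. Neither of them was called.

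Other neighbours were named by having the highest and lowest ratio among flank windows with a gene start. Near Dnmt1 these were the adhesion gene Icam1 with 1894 and 1057 interactions on 129 and Cas, and the Janus kinase gene Tyk2 with 2220 and 2080. Beside Uhrf1, the lowest was Ubxn6 with 2051 and 1688. Near Dnmt3a, Efr3b was the lowest. Near Dnmt3b, Efcab8 had 1297 and 887 and Bpifb6 had 4199 and 3719. Near Dnmt3l, a window with Gm9736 had 989 and 502, and Lrrc3 had 1288 and 949. None of these 8 windows passed the beta-binomial test.

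Near Tet1, the highest was Pbld1 with 3698 and 1609 interactions, a share of 69.7% (68.4 to 70.9%) and a beta-binomial adjusted p of 0.926. The lowest was Kifbp, which encodes a kinesin-binding protein, with 3656 and 2602. Near Tet2, the mitochondrial pyrophosphatase gene Ppa2 had 2063 and 1473 and Arhgef38 had 2286 and 1652. Near Tet3, the deubiquitinase gene Stambp had 715 and 351 and Wdr54 had 2773 and 2536. None of these 6 windows was called.

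Interaction distances varied far more between the gene windows than between the alleles of a window, also within single genes such as Dnmt3b and Tet2. Each window has a single deposited distance per allele, taken to be in bp. Whether it is a mean or a median over the window's contacts is not stated. No test was possible. The median over the 17 windows was 97 kb on 129 and 119 kb on Cas, against 350 and 347 kb over all windows. The 80 flank windows were nearer to the members, with medians of 129.25 kb on 129 and 142.25 kb on Cas. 129 had the longer distance in 8 windows and Cas in 9, and none differed 2-fold. Over all windows, 7450 of the 43555 compared for distance did. Those windows were sparser, with a median summed count of 974 against 2667 in the 17. Log2 ratios of 129 to Cas distance ran from -0.84 to 0.75 with a standard deviation of 0.37, where the 17130 windows in the same range of counts had 0.64.

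The longest reach was at Tet2, whose body window reached 747.5 kb (129) and 746 kb (Cas), against 228 and 205 kb in its start window. Dnmt3b came next, with 521 and 513 kb in its body window, while its start window had 54 kb on 129 and 32 kb on Cas. That start window had the largest ratio towards 129, 0.75. The largest towards Cas was in the outer start window of Dnmt3a, at 44 and 78.5 kb. The inner start window had 148.5 and 123 kb, in the opposite order, and the last window 54 and 52 kb.

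Uhrf1 had 173 kb on 129 and 193 kb on Cas, longer than in any Dnmt3a window. Tet1 had 98 and 119 kb in its start window and 139.5 and 173 kb in the other. Contacts of all 3 Tet3 windows were longer on Cas, at 78 against 106, 97 against 141 and 117 against 127 kb. Those of Dnmt3l had 74 and 93, and 89 and 92 kb, and those of Dnmt1 62 and 58 kb at the start and 68 and 56.5 kb in the body. Tet2 also had the emptiest surroundings, with 2 other protein-coding genes within 250 kb, against 5 at Dnmt3a and 9 to 20 at the other 6.

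**Figure D3:**
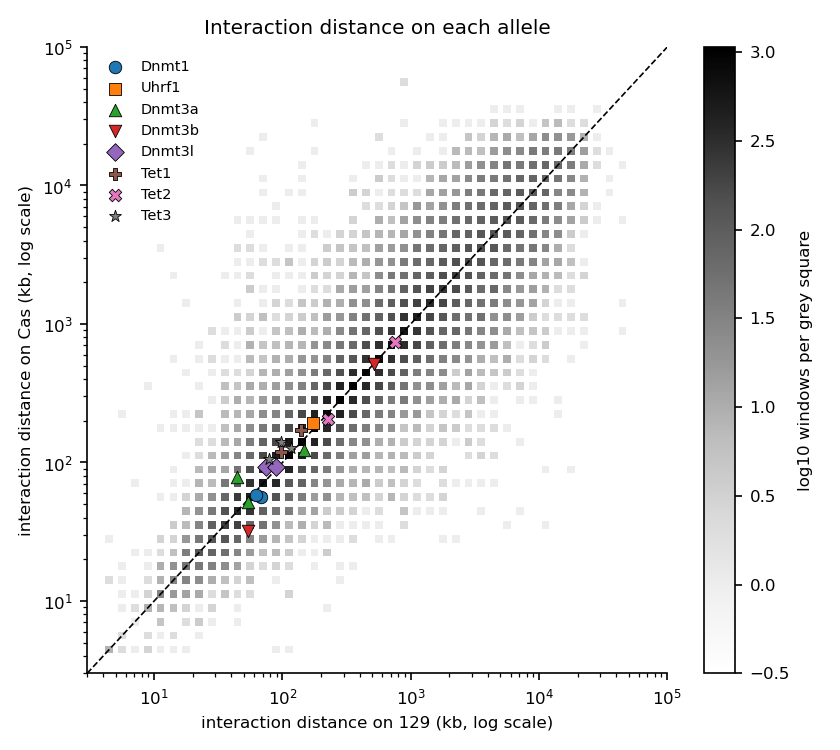
Interaction distance on 129 (x axis, kb) against Cas (y axis, kb), both on log scales, for the 17 gene windows (coloured symbols) over all windows in which each allele had at least 10 interactions (grey squares, darker for more windows, those beyond the axes not drawn). Gene windows lie along the dashed line of equal distance, from the Dnmt3b start window at 54 and 32 kb to the Tet2 body window at 747.5 and 746 kb.

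In the flanks, 4 of 80 windows differed 2-fold or more in distance, all longer on Cas. That is a smaller share than over all windows, where 7450 of the 43555 compared did. The flanks were also less sparse, with a median summed count of 2614 against 974. In a sparse window between Ppa2 and Tet2, with 244 and 161 interactions, 129 reached 188 kb and Cas 1385 kb. The window after the Dnajc27 start had 26 and 108 kb, the window just before Uhrf1 had 70 and 158.5 kb, and a window with Mthfd2 and Mob1a beside Tet3 had 64.5 and 142.5 kb.

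The wider pathway was described through 42 further genes, 38 of them analysed. The others were not analysed here. None of the 38 loci was called by the beta-binomial test (1.36% of all protein-coding loci were), and 2 of 38 (5.26%) had an unadjusted p under 0.05, as did 1024 of the 18479 loci tested (5.54%). The exact binomial test called 13 of the 38 higher and 9 lower on 129, or 57.9%, where it called 67.5% of all loci, 5391 higher and 7086 lower. Their median centred log2 ratio was -0.0095, with 18 above 0 and 20 below, and that of all 18479 loci tested was -0.037. The 7 readers of methylation, which include Mbd1 to Mbd4 and Uhrf2, stayed between -0.11 and 0.13. The 8 genes of maintenance and imprint protection, such as Pcna, Hells and Trim28, lay between -0.25 and 0.14. The 11 genes of base excision and deamination, among them Tdg, ran from -0.47 to 0.39.

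**Figure D4:**
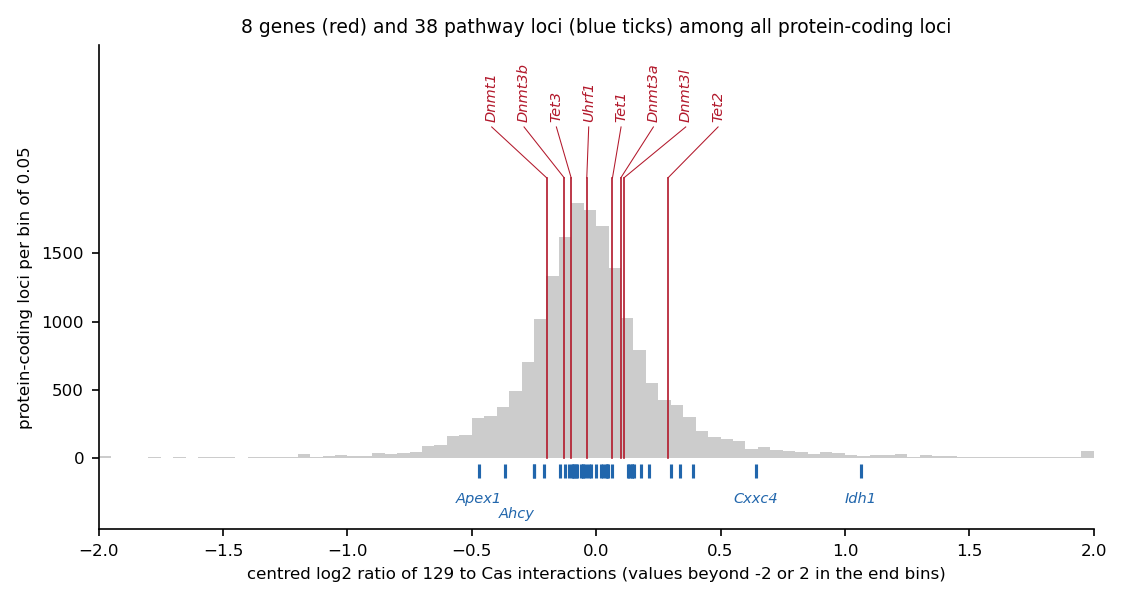
Centred log2 ratio of 129 to Cas interactions (x axis) for all tested protein-coding loci (grey histogram, loci per bin of 0.05, values beyond -2 or 2 in the end bins), the 8 genes (red lines) and the 38 pathway loci (blue ticks). The red lines lie from -0.20 at Dnmt1 to 0.29 at Tet2, within the bulk of the distribution, and Idh1 at 1.06 and Cxxc4 at 0.64 are the pathway loci furthest to the right.

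The largest ratio of the list was at Idh1, which encodes the enzyme that makes the cofactor of the Tet proteins in the cytosol. In its single window 2670 contacts came from 129 and 933 from Cas, that is 74.1% from 129 (72.6 to 75.5%), a ratio of 1.06. It missed the threshold narrowly, with a beta-binomial adjusted p of 0.0597 that ranged from 0.0478 against the share of its own chromosome to 0.0942 with windows at least 25 kb inside the gene. Against an equal share of both alleles, which is below the autosomal 129 share of 57.57%, the beta-binomial adjusted p was 0.000158. Cxxc4, which encodes a CXXC zinc finger protein that binds Tet2, had 2813 and 1318, a share of 68.1% (66.6 to 69.5%) and an adjusted p of 0.793. At the other end were the abasic endonuclease gene Apex1, with 1305 and 1322 interactions and a ratio of -0.47, and Ahcy, whose enzyme clears the by-product of methylation, with 1374 and 1296 and a ratio of -0.37. Both had adjusted p of 1 by that test.

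Cxxc4 (134236144 to 134262163) is also the next protein-coding gene after Tet2 on chromosome 3, 691 kb beyond its start, and the stretch between them was examined after the Cxxc4 value had been seen. In the 13 windows between the genes, 11 had a ratio above 0 and 2 below, with a median of 0.36 and a range of -0.29 to 0.82. Their 6134 contacts of 129 and 3844 of Cas put 61.5% on 129. The window next to Tet2 alone gave 2544 and 1694 of these. The other 12 had 160 to 828 interactions each and, without it, 3590 and 2150 in sum, or 62.5% on 129. Over all 13 windows the median distance was 981 kb for 129 and 1278 kb for Cas. The ratio of 1.04 at the first Cxxc4 window (1971 and 698 interactions) was followed by -0.011 at the second (842 and 620). These shares are a description with no test over the stretch.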

How the data were processed

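Promoter Capture Hi-C was run on 2 samples of F121-6 ES cells, per the labels' protocols with 2% formaldehyde, HindIII, 100 bp paired reads and baits to 22225 promoters. Bowtie2 and mm10 are listed, without their roles, in the submitters' processing notes. The authors deposited raw interaction counts per allele and 50 kb window, summing to 50842396 on 129 and 37470557 on Cas, and a distance taken to be in bp, whether a mean or a median is not stated. Each column carries no replicate label, so values were taken as pooled over both samples and replicate error is unknown. Allele assignment, duplicate removal and any merging are not given in the sources used here. Loss of Cas reads in mapping would raise the 129 share, and the number of baits per window may affect the sums. Neither was tested.

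Log2 ratios used a pseudocount of 1. The beta-binomial test used an overdispersion of 0.0165 for windows and 0.0109 for loci, estimated over all units with 10 or more interactions. It and the exact binomial test, the alternative, doubled the smaller tail. P-values were adjusted over all units. Intervals cover counting error only. The tests were tested on simulated data. Genes were placed by RefSeq on GRCm38.p6, and strand came from its promoter table. Named neighbours are genes whose start lies in the window of highest or lowest ratio among the flank windows that hold a gene start. Named pathway genes are the 2 per direction of largest ratio, since none was called. The members and lists were chosen with earlier results of these data known. Software was scipy 1.17.1, numba 0.67.0, numpy 2.4.6 and pandas 2.3.3 in Python 3.11.15, with matplotlib 3.10.9.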

Additional observations from a re-analysis of the deposited data

How the results depend on the processing

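With the exact binomial test in place of the beta-binomial test, called counts went from 0 to 11 of 17 windows, 4 of 8 windows with a 5' end, 7 of 8 member loci and 22 of 38 pathway loci, where it called 51.4% of all windows and 67.5% of all loci. That test leaves out the spread between windows. No member window or locus was called under any beta-binomial alternative: the share of the own chromosome or an equal share as null, a count minimum of 50, a threshold of 0.01, overdispersion within count deciles (windows), windows at least 25 kb inside the gene (loci), or, added after seeing the data, every window with a listed start. The stricter threshold could add no call, nor could the windows with a listed start, which are among the 17. The higher count minimum removed no member. In the pathway list, 1 locus (Idh1) was called against its chromosome's share and 2 (Idh1 and Cxxc4) against an equal share. The share of all loci called against these nulls is not given here. An equal share lies below the autosomal 129 share of 57.57%, so calls against it include that general tilt. Centring on chromosome 10 reversed Dnmt3l (locus -0.12, start window -0.10) and Tet1 (locus -0.17, start window -0.20), by the construction of that centre. With flanks of 500 kb, 3 loci rather than 1 lay above their flanks, Tet2 with Dnmt3a (0.029) and Dnmt3l (0.093), and the cause was not tested. Pseudocounts of 0.5 and 5 reversed no value. The count of windows with longer contacts on 129 was 8 at both count minimums, as it had to be, since neither removes a member window. No paired analysis was possible because the columns, taken as pooled over both samples, carry no replicate number, and no replicate could be left out. Depth limits the 129 share of member windows to a counting SE of 0.653 to 1.53 points, less than the spread between windows of 6.35 points.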
